A study of Pinus pinaster with 24 samples.

Results

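The response of the root meristem to nitrate was measured in 6 of 24 libraries from the root tips of seedlings of maritime pine, Pinus pinaster, from the Segura-Alcaraz provenance. The nitrate group received 80 mL of potassium nitrate at 3 mM, and the control group received the same volume of potassium chloride (KCl) at 3 mM, so both groups received potassium and differed in the anion. Each group has 3 libraries, numbered by experiment. All seedlings were 1 month old and had been kept for 3 days on a nutrient solution without a nitrogen source, and roots were collected 2 h after irrigation. The meristem was isolated by laser microdissection from frozen sections of 30 µm, by its position between the root cap and the developing tissues. The other 18 libraries come from the root cap and from developing cortex and vascular tissue of root tips given the same solutions. Neither the number of seedlings behind a library nor whether the numbered experiments were grown separately is stated in the labels, and p-values here describe the spread between libraries only. Of the 51211 transcripts in the deposited table, 42098 (82.2%) reached at least 1 CPM in at least 3 of the 6 meristem libraries and were tested.

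Nitrate is both a nitrogen source and a signal for plants. In the roots of Arabidopsis thaliana, where this has been studied most, nitrate is sensed at the cell surface and inside the cell, and within minutes to hours it changes the transcription of genes for nitrate uptake, nitrate reduction and the supply of reducing power. The root meristem holds the dividing cells from which the cap, the cortex and the vascular tissue are formed, and it draws nutrients from the tissues around it. No source used here pairs the transcript IDs with gene names, so 0 of the 51211 IDs had a name, and neither known nitrate-responsive genes nor meristem markers could be looked up. Transcripts are therefore described by their ID and their values, and at most 2 higher and 2 lower IDs per comparison are named.

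The values are CPM scaled further by the authors, and the whole reads behind them could be recovered. The meristem libraries held 45262154 to 48400534 reads, so that 3 reads corresponded to 0.0513 to 0.0605 CPM, and 3.847% to 4.546% of all transcripts had no read in a given library. On the log2(CPM + 0.5) scale, Pearson's r across the tested transcripts was 0.929 to 0.955 between nitrate libraries, 0.919 to 0.95 between KCl libraries and 0.901 to 0.949 between the solutions. The ranges overlapped, so the solution did not set the meristem libraries apart as a whole. Of the 6 libraries, 5 were most like another meristem library. KCl experiment 1 was most like the KCl cortex library of the same number (r of 0.939, against at most 0.934 with a meristem library). Without it, limma called 30 transcripts for the nitrate effect in the meristem and edgeR 13, against 41 and 19 with it.

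Transcripts that mark the neighbouring areas held a smaller share of the CPM in meristem libraries than in their own area, and their shares overlapped between the solutions. Markers were transcripts at least 16-fold higher in one of the other areas than in the remaining 2, chosen on the 18 libraries from outside the meristem. The 672 cap transcripts held 1.04%, 0.279% and 0.839% of the CPM in nitrate meristem libraries 1 to 3, against 1.33%, 0.579% and 0.679% in KCl libraries 1 to 3. In cap libraries they held 12.15% to 17.9%. The 30 cortex transcripts held 0.0198% ± 0.00715 with nitrate and 0.016% ± 0.00457 with KCl (SD, n = 3 each), and the 143 vascular transcripts held 0.0306% ± 0.0231 with nitrate and 0.0157% ± 0.00996 with KCl (SD, n = 3 each). In their own areas, the cortex list held 0.247% to 0.459% and the vascular list 0.169% to 0.886%. The own-area shares of all lists come from the libraries that chose the markers, so they are high partly by that choice. The highest meristem library of the cortex list was nitrate experiment 1, at 0.028%, and that of the vascular list was nitrate experiment 3, at 0.0572%, so the margin to the own area was narrowest for the vascular list. By exact permutation, two-sided, p was 0.7 for the cap, 0.5 for the cortex and 0.4 for the vascular list, in a design that cannot go below 0.1. With no read in any meristem library were 47 of the cap, 0 of the cortex and 13 of the vascular transcripts, and of the 172, 10 and 34 that passed the filter of the meristem, 0 were called as changed by nitrate there, where 0.0974% of all tested transcripts were called, so that few calls or none would be found at that rate in lists of this size. With markers at least 4-fold higher, 2 of 1620 cap transcripts were called lower, 0 of 155 cortex transcripts were called and 1 of 278 vascular transcripts was called higher with nitrate in the meristem. The part of other areas' cells in these calls was not tested. In such dissected tissue, fewer cells of a type and less RNA per cell cannot be told apart.

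**Figure D1:**
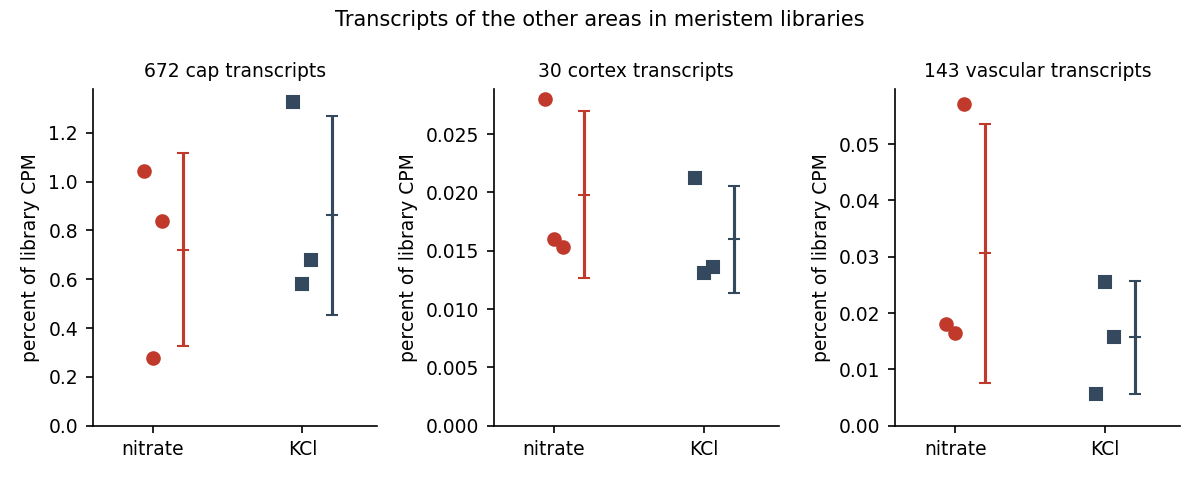
Percent of the CPM of each meristem library held by transcripts that mark the cap, the cortex or the vascular tissue, for nitrate and KCl. Points are libraries, and the bars beside them show the mean and SD of 3 libraries. The solutions overlap in every panel.

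The comparison of the solutions asked how the meristem responded to nitrate within 2 h. The median change over the 42098 transcripts was -0.015 on the log2 scale and 0.011 under median-of-ratios scaling. This median depends on how the libraries are scaled, so it does not measure an overall change. In the limma test, 1978 transcripts (4.7%) had an unadjusted p below 0.05, where a share of about 0.05 would be found with no effect. The nitrate and KCl libraries did not overlap for 4205 transcripts (9.99%), 1926 of them higher (4.58%) and 2279 lower (5.41%) with nitrate, and under median-of-ratios scaling the larger count turned, with 2174 higher and 1976 lower. Without KCl experiment 1 the count was 8266, and fewer libraries overlap less. For 32022 transcripts (76.1%) the 95% interval of the change lay within -1 to 1 on the log2 scale.

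Against this background, 41 transcripts (0.0974% of those tested) passed an adjusted p of 0.05 by limma with Benjamini-Hochberg adjustment, 21 higher (0.0499%) and 20 lower (0.0475%) with nitrate. In each of them the 3 nitrate values lay apart from the 3 KCl values, as they did for 9.99% of all tested transcripts. For the calls this is largely built in, since the same values chose them. The rises were 1.25 to 3.66 on the log2(CPM + 0.5) scale with a median of 2.02, and the falls were -4.21 to -0.96 with a median of -2.71. The count test of edgeR on the recovered reads called 19 transcripts (0.0451%), 10 higher (0.0238%) and 9 lower (0.0214%), and all of these were among the 41. A large change did not by itself lead to a call. Of 972 transcripts (2.31%) with a fitted change of at least 1 in either direction, 40 were called, and the largest changes that were not called were 4.18 and -3.66.

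**Figure D2:**
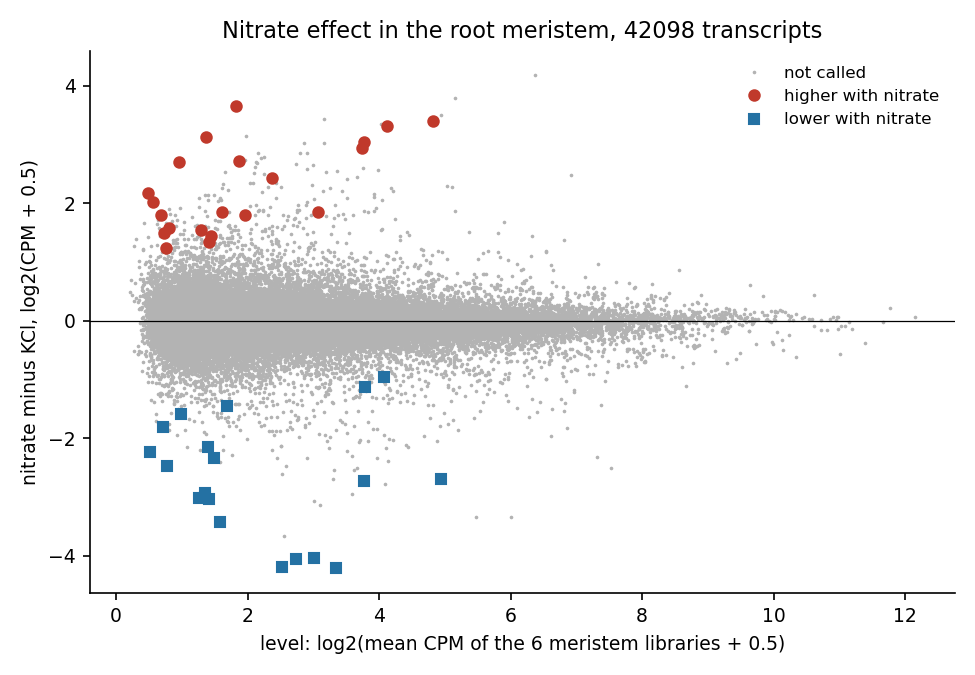
Nitrate effect in the meristem (nitrate minus KCl, log2(CPM + 0.5)) against the mean level of the 6 libraries, for 42098 transcripts. Red circles are the 21 called rises, blue squares the 20 called falls, and grey points the transcripts not called, among which are changes as large as 4.18.

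The rise with the smallest p was that of pp_103534. It had 6.29, 5.09 and 6.82 CPM in nitrate libraries 1 to 3, against 0, 0 and 0.0539 CPM in KCl libraries 1 to 3. The transcript was thus plainly present in each nitrate library and had 0, 0 and 3 reads in the KCl libraries. The group means were 6.06 ± 0.888 CPM with nitrate and 0.018 ± 0.0311 CPM with KCl (SD, n = 3 each). The ratio of nitrate to KCl was 323.4, with a 95% interval from counting error alone of 110.4 to 1571. The log2(CPM + 0.5) change was 3.66, its standard error 0.225 and its adjusted p 3.67e-08 by limma and 0.00127 by edgeR. It was also the only transcript called when the 6 meristem libraries were fitted on their own (adjusted p = 0.0307, limma). The next ID by number was called as well, and the pair summed to 11, 8.29 and 11.3 CPM with nitrate and to 0, 0 and 0.126 CPM with KCl. With nitrate, pp_103534 had means of 12.35 CPM in the cap, 9.42 CPM in the cortex and 6.77 CPM in vascular libraries. Limma called it higher with nitrate in each of these areas too.

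The second rise named by the rule was pp_200646. It had 3.07, 3.53 and 2.03 CPM in the nitrate libraries, against 0.0186, 0 and 0 CPM in the KCl libraries. A single read stood behind the KCl values, so the ratio of 452.8 has a counting interval of 80.87 to 17920. The log2 change was 2.71 and its standard error 0.254 (adjusted p = 2.01e-05 by limma and 0.00127 by edgeR). Its nitrate mean was 2.88 ± 0.766 CPM in the meristem, 0.549 ± 0.492 CPM in the cap, 2.05 ± 0.495 CPM in the cortex and 2.16 ± 0.369 CPM in vascular libraries (SD, n = 3 each). The meristem mean was the highest of these, but its lowest library, at 2.03 CPM, lay within the range of the cortex and vascular libraries. In the cap, where KCl libraries had 0 reads, the rise was at least 23.6-fold against a floor of 3 reads over the group (adjusted p = 0.188 by limma and 0.0102 by edgeR).

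The 2 falls named by the rule were near-complete. The transcript pp_93557 had 0.0386, 0 and 0 CPM with nitrate, against 4.01, 9.12 and 18.3 CPM with KCl. All KCl libraries held it at differing levels, and the nitrate libraries had 2 reads in all. KCl exceeded nitrate by a ratio of 859.1, with a counting interval of 237.5 to 7100, and the log2 change was -4.19 with its standard error at 0.437 (adjusted p = 8.95e-05 by limma and 0.00127 by edgeR). In the case of pp_93274, there were 0 reads in each of the 3 nitrate libraries, against 6.31, 3.75 and 4.91 CPM in the KCl libraries. This was at least 269.3-fold lower with nitrate, against a floor of 3 reads over the group, and the log2 change was -3.43 with its standard error at 0.368 (adjusted p = 0.000112 by limma and 0.00376 by edgeR). With KCl, pp_93274 had means of 9.815 CPM in the cap, 10.05 CPM in the cortex and 0.995 CPM in vascular libraries. Limma called its fall in the cap and the cortex too, but not in vascular libraries.

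**Figure D3:**
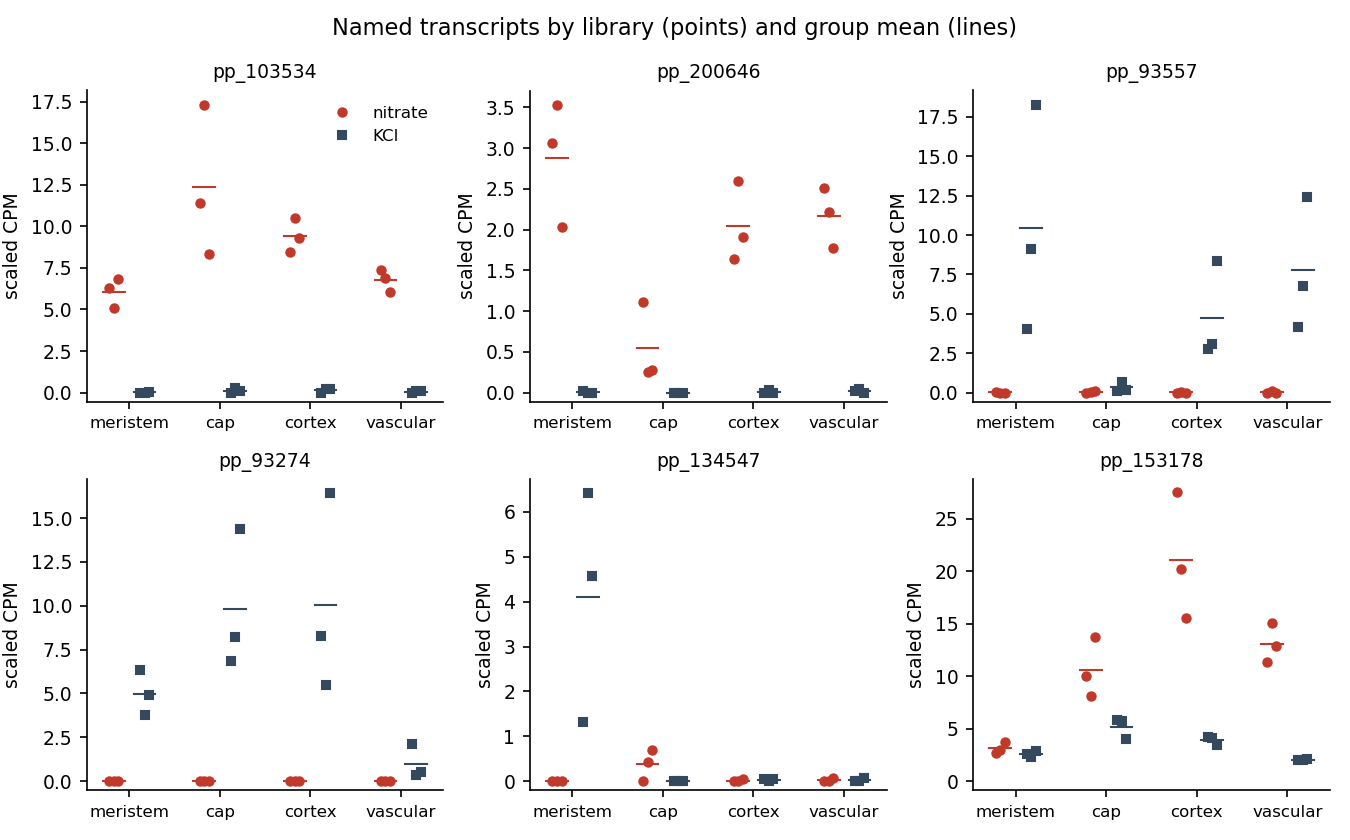
Scaled CPM of the 6 transcripts named for a difference, in all 24 libraries. Points are libraries (red circles nitrate, dark squares KCl), short lines are means of 3, and the areas run from the meristem to the vascular tissue. The panels of pp_103534, pp_200646, pp_93557 and pp_93274 show 1 solution at or near 0 in the meristem, pp_134547 is above 1 CPM only in KCl meristem libraries, and pp_153178 is nearly level in the meristem.

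Some calls were changes between detected and undetected, 8 of the 20 falls and 3 of the 21 rises. Of the 20 falls, 7 had 0 reads in all nitrate libraries and 1 more had 1 to 3 reads, at mean levels of 1.87 to 12.4 CPM with KCl. Of the 21 rises, 1 had 0 reads in all KCl libraries and 2 more had 1 to 3 reads, at means of 1.81 to 6.06 CPM with nitrate. These counts use the values that chose the calls and are a description. Over all 42098 transcripts, 7 (0.0166%) had 0 reads in every nitrate library and 1 (0.00238%) had 0 reads in every KCl library, and all 8 were called. The filter bounds this group, since a transcript with no read in 1 solution had to reach 1 CPM in every library of the other.

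The remaining 12 falls and 18 rises were changes between measurable levels. These falls were -4.21 to -0.96 with a median of -2.24, and these rises were 1.25 to 3.4 with a median of 1.86, all on the log2 scale. Many called transcripts had neighbouring IDs, which may be copies or parts of a gene. Joining IDs within 5 numbers of each other left 31 runs, 16 higher and 15 lower, and 0 runs held both directions. The 7 runs of 2 or more IDs contained 17 of the 41 transcripts.

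The largest run had 4 IDs and rose. Its summed level was 46.2, 198 and 149 CPM in the nitrate libraries, against 11.2, 9.82 and 9.88 CPM in the KCl libraries. The lowest nitrate library, experiment 1, was still above every KCl library. The means were 131 ± 77.5 CPM with nitrate and 10.3 ± 0.783 CPM with KCl (SD, n = 3 each), and the 4 changes were 2.95 to 3.4 on the log2 scale (adjusted p of 0.00509 to 0.0466, limma). Only 1 of the 4 was called by edgeR. The same run had 146.7 ± 74.3 CPM with nitrate and 0.966 ± 0.264 CPM with KCl in the cortex, 63 ± 16.3 and 1.23 ± 1.44 CPM in vascular libraries, and 28.7 ± 19.2 and 2.01 ± 1.97 CPM in the cap (SD, n = 3 each). The KCl level was thus highest in the meristem. The changes were 5.13 to 5.94 for the cortex and 3.86 to 4.94 for the vascular libraries, but the difference between the meristem and the mean of the other areas was not called for any of the 4.

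A run of 3 IDs fell by a modest and steady amount. It summed to 18.1, 15.9 and 25.5 CPM with nitrate, against 44.2, 42.6 and 40.3 CPM with KCl. The means were 19.8 ± 5.02 CPM with nitrate and 42.4 ± 1.95 CPM with KCl (SD, n = 3 each), the changes were -1.58 to -0.96, and all 3 were called by edgeR too. With nitrate the run was also lower in the cap, at 37.4 ± 3.74 against 92.9 ± 7.51 CPM, where all 3 IDs were called by limma. It was lower too in the cortex (31.9 ± 2.32 against 52.7 ± 0.546 CPM) and in vascular libraries (15.1 ± 2.3 against 25.9 ± 4.22 CPM; SD, n = 3 each). There 1 of the 3 IDs was called by limma in each area.

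The fall with the highest KCl level was a pair of IDs that summed to 10.6, 9.12 and 12.2 CPM with nitrate, against 90.04, 53.1 and 84.8 CPM with KCl. Both changes were near -2.7 on the log2 scale (-2.69 and -2.73, adjusted p = 0.000578 and 0.000586 by limma), but edgeR called 0 of the 2. The pair was also lower with nitrate in the cap, at 3.01 ± 1.1 against 47.4 ± 20.8 CPM, and in the cortex, at 0.751 ± 0.213 against 8.7 ± 3.87 CPM (SD, n = 3 each), and was called there. In the vascular tissue it was at 0.416 ± 0.333 CPM with nitrate and 0.399 ± 0.43 CPM with KCl. Another pair that fell was at 0 in all nitrate libraries and at 24.3, 15.4 and 4.69 CPM in KCl libraries. That pair was far more abundant with KCl in the cap (99.2 ± 62.9 CPM) and the cortex (111.7 ± 64 CPM) than in the meristem (14.8 ± 9.81 CPM; SD, n = 3 each), and had 0 CPM in the nitrate libraries of all these areas.

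Most calls of the meristem stood beside changes in other areas. Of the 21 rises, 9 were also called higher in the cap, where 0.0594% of the same 42098 transcripts were called higher, 14 in the cortex (0.0736%) and 15 in vascular libraries (0.147%). Their median change was 2.02 in the meristem, 1.53 in the cap, 1.75 in the cortex and 2.08 for vascular libraries on the log2 scale. Of the 20 falls, 12 were called lower in the cap (0.076% of all), 13 in the cortex (0.0356%) and 8 in vascular libraries (0.0285%), and their medians were -2.71 in the meristem, -1.54 in the cap, -2.27 in the cortex and -1.51 in vascular libraries. No call of the meristem was called in the opposite direction elsewhere. Of the 41, 8 rises and 2 falls were called in all 4 areas. The libraries of different areas are distinct, but those with the same solution and number deviated together from their group means (correlations across transcripts of 0.281 to 0.725 between a meristem library and its counterparts), so the areas are not independent repeats. The 4 area tests also use the same spread per transcript, so a transcript with a small spread is easier to call in every area. The shares of all transcripts do not allow for this. The part of the common spread and of shared plants, days or handling in these common calls was not tested.

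**Figure D4:**
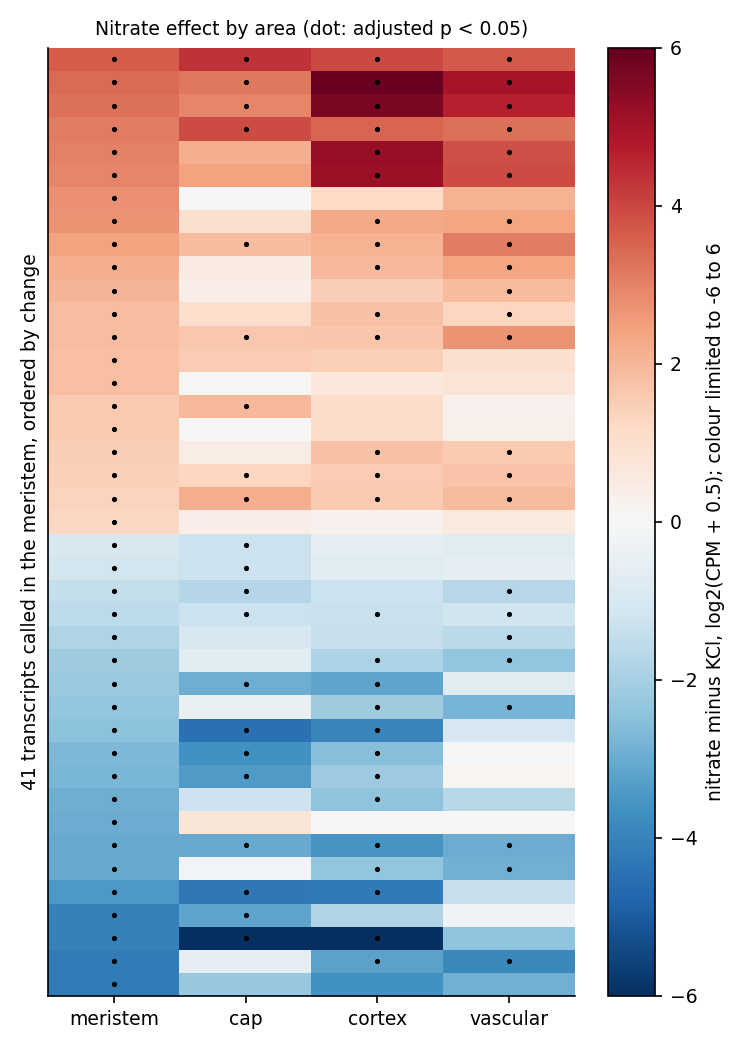
Nitrate effect (nitrate minus KCl, log2(CPM + 0.5)) of the 41 transcripts called in the meristem, in each area. Red is higher and blue lower with nitrate, dots mark an adjusted p below 0.05 by limma, and colours are limited to -6 to 6. Most rows keep 1 colour across the 4 areas.

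The area in which these transcripts were most abundant varied. With KCl, 10 of the 20 falls had their highest mean in the meristem, 5 in the cap, 4 in the cortex and 1 in vascular libraries, while 25.4% of all tested transcripts had it in the meristem. With nitrate, the 21 rises were highest in the meristem for 6, in the cap for 6, in the cortex for 6 and in vascular libraries for 3, while the shares of all tested transcripts were 33.2%, 34.7%, 12.9% and 19.2% in the same order of areas. The count of falls in the meristem is partly built in, since a call needs a level in the meristem from which to fall. Several of these transcripts were at low levels elsewhere. Whether this kept changes from being called there was not tested. In the cap, 13 of the 20 falls had a mean of at least 1 CPM with KCl, and 13 of the 21 rises had one with nitrate, compared with 19 falls and 17 rises for the cortex and 13 falls and 19 rises for vascular libraries. The transcript pp_93557 is an example. In the cap it had 0.0373 ± 0.0488 CPM with nitrate and 0.326 ± 0.319 CPM with KCl, while vascular libraries had 0.025 ± 0.0433 CPM with nitrate and 7.79 ± 4.22 CPM with KCl (SD, n = 3 each).

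The test of the meristem effect against the mean effect of the other 3 areas called 2 transcripts (0.00475%). For both, the nitrate effect was lower in the meristem. The first, pp_134547, had 0 reads in the 3 nitrate meristem libraries, against 1.32, 6.41 and 4.58 CPM in the KCl meristem libraries. It was at least 221.6-fold lower with nitrate, and its change was -3 with a standard error of 0.36 (adjusted p = 0.000456 by limma and 0.101 by edgeR). Outside the meristem it was nearly undetected with either solution. The cap libraries had 0.374 ± 0.35 CPM with nitrate and 0 reads with KCl (SD, n = 3 each), and the means of cortex and vascular libraries were 0.0124 to 0.0277 CPM. The meristem effect was 3.22 lower than the mean of the others (-3.22, standard error 0.415, adjusted p = 0.00941 by limma and 1 by edgeR). With so little of it in the other areas, a fall by the same factor could not show there. Left out in turn, 4 of the 6 meristem libraries ended the call of this difference (adjusted p of 0.0546 without KCl experiment 2, 0.0983 without KCl experiment 3, 0.063 without nitrate experiment 1 and 0.0592 without nitrate experiment 2).

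The second, pp_153178, was nearly level in the meristem and higher with nitrate elsewhere. It had 2.68, 2.92 and 3.76 CPM in nitrate meristem libraries, against 2.54, 2.32 and 2.84 CPM in KCl meristem libraries, and these values overlap. The change was 0.23 on the log2 scale, with a 95% interval of -0.2 to 0.66. In the cortex it had 27.5, 20.2 and 15.6 CPM with nitrate, against 4.18, 4.11 and 3.47 CPM with KCl, and in vascular libraries 11.3, 15.1 and 12.9 CPM with nitrate, against 2.03, 1.97 and 2.07 CPM with KCl. It rose in both (2.26, adjusted p = 5.57e-06, and 2.42, adjusted p = 3.64e-06, limma). In the cap the means were 10.6 ± 2.86 CPM with nitrate and 5.2 ± 1.02 CPM with KCl (SD, n = 3 each), a change of 0.95 (adjusted p = 0.0765 by limma and 0.0452 by edgeR). The difference between the meristem and the other areas was -1.65 with a standard error of 0.237 (adjusted p = 0.0237 by limma and 0.0493 by edgeR). Without any 1 of 5 meristem libraries it missed the threshold (adjusted p of 0.08 to 0.224, nitrate experiment 3 being the exception), and likewise with the experiment number as a block (adjusted p = 0.0636).

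For the other 40 calls of the meristem the difference from the other areas was not called, which does not show that the effects were equal. In the meristem but in no other area, 5 rises and 2 falls were called by limma. None of these was called in the meristem by edgeR, where their smallest adjusted p was 0.0823. The differences of the 5 rises from the mean of the other areas were 0.51 to 1.62 on the log2 scale, and 0 of them were called. Of the 2 falls, pp_134547 is described above, and the other had a difference of -1.27 (adjusted p = 1, limma).

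The 2 transcripts with the highest mean CPM in the meristem, without a correction for length, did not pass the test. The transcript pp_124914 had 5021, 6311 and 2905 CPM with nitrate, against 3651, 5320 and 4160 CPM with KCl, and pp_94288 had 4049, 4607 and 2573 CPM with nitrate, against 1993, 4205 and 3608 CPM with KCl. The groups overlap for both. The changes were 0.06, with a 95% interval of -0.61 to 0.74, and 0.22, with an interval of -0.41 to 0.86.

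How firmly the 41 calls stand depended on the libraries and on the spread they were set against. The spread of the reported fit is shared over all 24 libraries, and for a transcript with 0 reads in several groups it rests on few varying libraries. On the 6 meristem libraries alone limma called 1 transcript, and 1834 (4.36%) had an unadjusted p below 0.05. There edgeR called 0, while 1790 (4.25%) had an unadjusted p below 0.05. Neither share is above the 0.05 that would be found with no effect. Leaving out a meristem library gave 25 to 38 calls, with 25 (11 higher and 14 lower) without nitrate experiment 2 and 30 without KCl experiment 1. In all of these 6 fits, 22 of the 41 were called, 9 rises and 13 falls, and 16 were lost in at least 3 of them. The 4 transcripts named for the nitrate effect kept their call in each of the 6, at adjusted p-values of at most 0.00138. Where every one of the 6 libraries had to reach 1 CPM, a filter that removes transcripts absent with 1 solution, 6 calls were left, 2 higher and 4 lower.

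**Figure D5:**
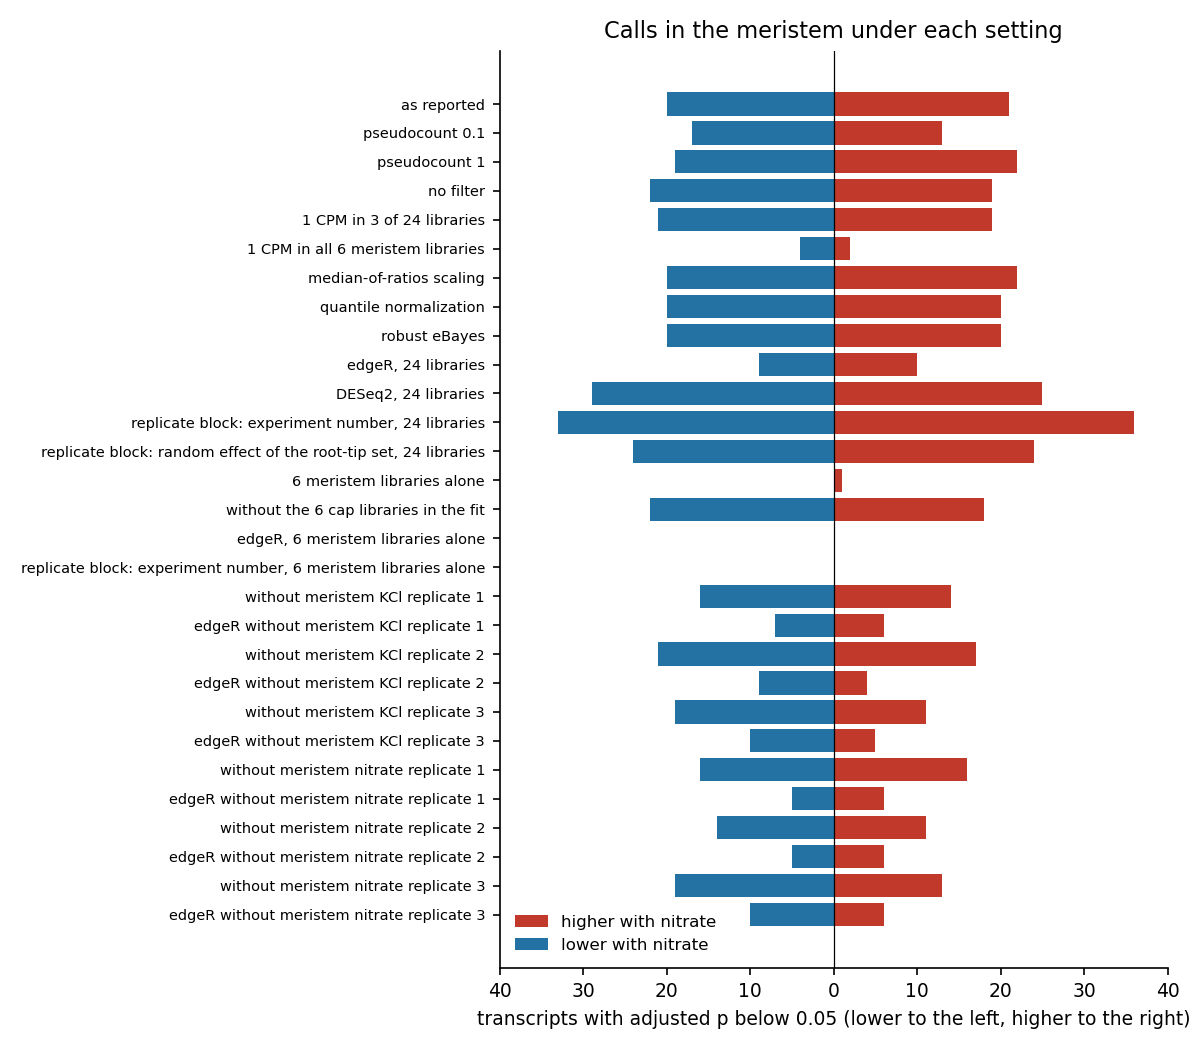
Number of transcripts called in the meristem under each setting, falls to the left and rises to the right of 0. The reported 20 falls and 21 rises are in the top row, and the rows with the 6 meristem libraries alone hold 1 call or none.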

How the data were processed

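RNA was measured in laser-microdissected areas of pine root tips. Per the labels' protocols, only RNA with an integrity number above 7 was used, cDNA was amplified with a low-input kit, and reads were paired and 150 bp long. bcl2fastq and BWA are named in the submitters' processing notes. For the read counter, the reference transcriptome and the scaling method, the tool is not given in the sources used here. Deposited values are a signal that the authors named CPM, but column totals of 786966 to 1173829 show a further scaling factor per library. Dividing by the value of 1 read gave whole numbers within 0.02 reads for 100% of the values of each column, and these whole reads were used for the count tests. No genome or sequence was used.

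The members and tests were chosen with earlier results of these data known. The filter kept transcripts that reached 1 CPM in 3 or more of the 6 meristem columns. Of those left out, 1482 reached 1 CPM in 2 columns (median of their means 0.939 CPM), and 1550 of those kept did so in exactly 3 (1.18 CPM). The test was limma 3.58.1 (R 4.3.3) on log2(CPM + 0.5) (variance trend, Benjamini-Hochberg adjustment, call at 0.05, two-sided). A model of 8 group means over all 24 libraries shared 1 spread per transcript. The design had assumed plain CPM, and the same test suits this signal. Alternatives included edgeR 4.0.16 and DESeq2 1.42.0 on recovered reads. The procedure was also run on simulated counts whose libraries were drawn independently. These lack the shared deviations of libraries with the same solution and number, so that run is no check on them. Fold changes on this scale understate changes of low transcripts.

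Named transcripts are the 2 higher and 2 lower with the smallest p among calls with an absolute log2 change of at least 1, per contrast, skipping IDs within 5 numbers of one already named, and the 2 with the highest mean CPM. Runs of IDs were described after their values were seen. Replicate libraries differed far beyond sampling noise (chi-square per transcript of 42.3 to 110.5), and each was counted as a replicate. This excess does not show that the libraries come from independently grown plants. Counting intervals are 95% exact binomial and, like floors of 3 reads over a group, cover counting error only.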

Additional observations from a re-analysis of the deposited data

Results flagged for a closer look

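A test of the difference between areas singled out 2 transcripts. The effect of nitrate on pp_134547 was lower in the meristem than averaged over the other areas (adjusted p = 0.00941, limma), with 0 reads in nitrate meristem libraries, 4.1 ± 2.58 CPM in KCl meristem libraries (SD, n = 3) and almost none in any other area. The effect on pp_153178 was also lower in the meristem (adjusted p = 0.0237, limma), with 3.12 ± 0.568 CPM in nitrate and 2.57 ± 0.261 CPM in KCl meristem libraries, against 21.1 ± 6.03 CPM in nitrate and 3.92 ± 0.391 CPM in KCl cortex libraries (SD, n = 3 each). Neither call held in every fit that left out 1 meristem library, although the differences kept their direction. They were -3.79 to -2.83 for pp_134547 and -1.77 to -1.56 for pp_153178. Leaving out 1 meristem library ended the call in 4 of 6 cases for pp_134547 (highest adjusted p 0.0983) and in 5 of 6 for pp_153178 (highest adjusted p 0.224).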

How the results depend on the processing

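The number of calls of the nitrate effect, 41 as reported, was 30 to 54 under several other settings. These were another pseudocount, no filter or a filter over 24 libraries, median-of-ratios or quantile scaling, a robust variance estimate, a fit without the cap libraries, and DESeq2. The calls were not all the same transcripts. The 54 calls of DESeq2 held 19 of the 21 reported rises and 16 of the 20 falls. The 40 calls without the cap libraries held 16 of these rises and 20 of these falls. There were 6 calls with 1 CPM in all 6 libraries, 19 by edgeR, and 1 by limma and 0 by edgeR on the 6 libraries alone. Leaving out a replicate gave 25 to 38 calls by limma and, in fits added after the data were seen, 11 to 16 by edgeR (13, 13 and 15 without KCl replicates 1 to 3). Between nitrate and KCl meristem libraries of the same experiment number, correlations of deviations were 0.172, 0.233 and -0.05. These are too few to tell whether the numbers pair the libraries. Nitrate experiment 2 was most like KCl experiment 2 (r of 0.949). With the experiment number as a block in limma there were 69 calls on 24 libraries (2983 at an unadjusted p below 0.05, 7.09%). On the 6 alone there were 0 (2175 at an unadjusted p below 0.05, 5.17%). Treating the root-tip set as random (same solution and number, correlation 0.215) gave 48. The 2 calls of the difference between areas were 0 with a pseudocount of 0.1 and 1 with the stricter filter, by edgeR or with the experiment number as a block, and 0 to 2 without 1 replicate. The 1 left was pp_153178 with the stricter filter, which does not keep pp_134547, and by edgeR, and pp_134547 with the block (adjusted p = 0.00466, against 0.0636 for pp_153178). DESeq2 called 2, 1 higher and 1 lower, with pp_153178 called and pp_134547 not (adjusted p = 0.231). The log2 ratio of nitrate to KCl in marker shares was -0.26, 0.31 and 0.97 for the cap, cortex and vascular lists. It was -0.62 to 0.2, -0.03 to 0.57 and 0.14 to 1.51 without 1 replicate, and -0.19 for the cortex with 4-fold markers. No cortex transcript reached 64-fold. Without 1 replicate, 7714 to 8825 transcripts did not overlap, since fewer libraries overlap less, also with no effect. The causes of the other differences were not tested. With 3 libraries per solution, a 95% interval of the log2 change had a median half-width of 0.517.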
